A study of Mus musculus with 2 samples.

Results

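Neuronal Progenitor cells were the cells that carried the cell type name Neuronal Progenitor in the authors' annotation of the series. Joining that annotation to the deposited matrices by cell barcode found 597 Neuronal Progenitor cells among 5678 annotated cells, of which F0_8 gave 147, F0_9 134, F1_1 150 and F1_mix 166. They were 1 of 12 deep cell types, that is, types without a median depth more than 3 times lower than that of all annotated cells (12072 UMIs), and the 11 other deep types served as the comparison.

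The series asked how evenly a transgene was carried and expressed in the cells of mouse embryos at E11.5. All embryos carried EGFP under the ubiquitous CAG promoter, linked to a DNA barcode and integrated with the piggyBac transposase. F0_8 and F0_9 were founder embryos, from C57BL/6J zygotes produced by in vitro fertilization that received transposase (mPBase) mRNA by electroporation and the donor plasmid by pronuclear injection. F1_1 came from a single F1 embryo, while F1_mix had been made by mixing cells of 2 F1 embryos and is counted here as 1 suspension. The paper does not state how the F1 embryos were bred. Transgene copies and integration sites differed between the embryos, a founder can hold cells of several integration histories, and no embryo without the transgene was analysed here. The 4 suspensions were tagged with multiplexing oligos, pooled and captured together as 3′ single-cell libraries, so they shared 1 capture. No barcode was shared between suspensions. Each suspension was prepared once, so p-values between generations measure the spread between these suspensions only.

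Neural progenitors of the ventricular zone are dividing epithelial cells that express SoxB1 transcription factors and intermediate filaments and that give rise to neurons and later to glia. Notch signalling keeps them undifferentiated: receptors activated by ligands on neighbouring cells release an intracellular domain that binds RBPJ and turns on Hes genes, whose products repress proneural factors. A cell in which proneural factors win turns on Notch ligands, leaves the cell cycle and becomes a neuron, and position along the neural tube is recorded by forebrain factors in front and Hox genes behind.

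Hes5, a Notch target that represses proneural genes, is shown first with its promoter, since it was the gene that set the Neuronal Progenitor cells apart most from every other deep cell type. The sequence is the window that the RefSeq table of GRCm38.p6 promoters gives for Hes5, 250 bases before and 50 bases after a transcript start, on the + strand at chr4:154960673-154960972. That start lies inside the gene record, chr4:154960626-154962372, which begins upstream of the whole window. Capitals mark the letters GTGGGAA on either strand, the core of the sequence bound by RBPJ.
Hes5 promoter: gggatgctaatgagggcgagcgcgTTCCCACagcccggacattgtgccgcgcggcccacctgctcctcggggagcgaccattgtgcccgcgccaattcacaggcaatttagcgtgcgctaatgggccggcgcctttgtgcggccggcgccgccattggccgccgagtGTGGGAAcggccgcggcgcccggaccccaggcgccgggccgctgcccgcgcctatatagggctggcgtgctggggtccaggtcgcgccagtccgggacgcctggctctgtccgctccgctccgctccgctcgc
The motif occurred 2 times, once as written and once as its reverse complement, with its first base at positions -226 and -83 relative to the transcript start of this window. Of 32851 mouse promoters of the same length, 6.38% held the motif on either strand and 0.256% held it 2 or more times. Of 7 genes listed as Notch targets, 4 had a promoter among these (Hes5, Hes6, Hey2 and Nrarp), and the motif was in those of Hes5 and Hey2. A match describes these letters and not a bound site.

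Neuronal Progenitor cells had a median of 13388 gene UMIs per cell. For F0_8, F0_9, F1_1 and F1_mix the medians were 12200, 12904, 14675 and 14116, so both founders lay below both F1 suspensions. Summed UMIs of the type were 1917770, 1794843, 2275132 and 2491750 in the same order. Mitochondrially encoded genes took a median of 1.86% of UMIs, and 6 of the 597 cells reached 5%. Levels below are UMIs of a gene summed over cells per 10000 gene UMIs, and intervals cover counting error only. Shares of cells with a UMI were taken after each cell was thinned to 5000 UMIs, which 589 Neuronal Progenitor cells reached.

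The 4 markers of the label were each highest in Neuronal Progenitor cells among the deep types. Sox2, a SoxB1 factor of neural stem cells, had levels of 4.15, 4.47, 4.57 and 3.69 UMIs per 10000 in F0_8, F0_9, F1_1 and F1_mix. Pax6, a homeodomain factor of dorsal and cortical progenitors, had levels of 1.15, 0.925, 0.721 and 0.546. Hes5 had levels of 3.61, 4.22, 3.53 and 3.45, against 0.433 over all CNS Neuron cells, the next highest type. Fabp7, the brain fatty acid binding protein of radial glia, had levels of 14.8, 17.7, 13.0 and 13.2, against 5.75 in Ependymal Cell. Founders and F1 suspensions did not overlap for Pax6, Hes5 and Fabp7, as for 45.0% of all genes tested, and they overlapped for Sox2. None of the 4 markers passed the founder against F1 test described further below, with adjusted p-values of 0.948 for Sox2, 0.126 for Pax6, 0.568 for Hes5 and 0.173 for Fabp7 (edgeR quasi-likelihood test, Benjamini-Hochberg).

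**Figure D1:**
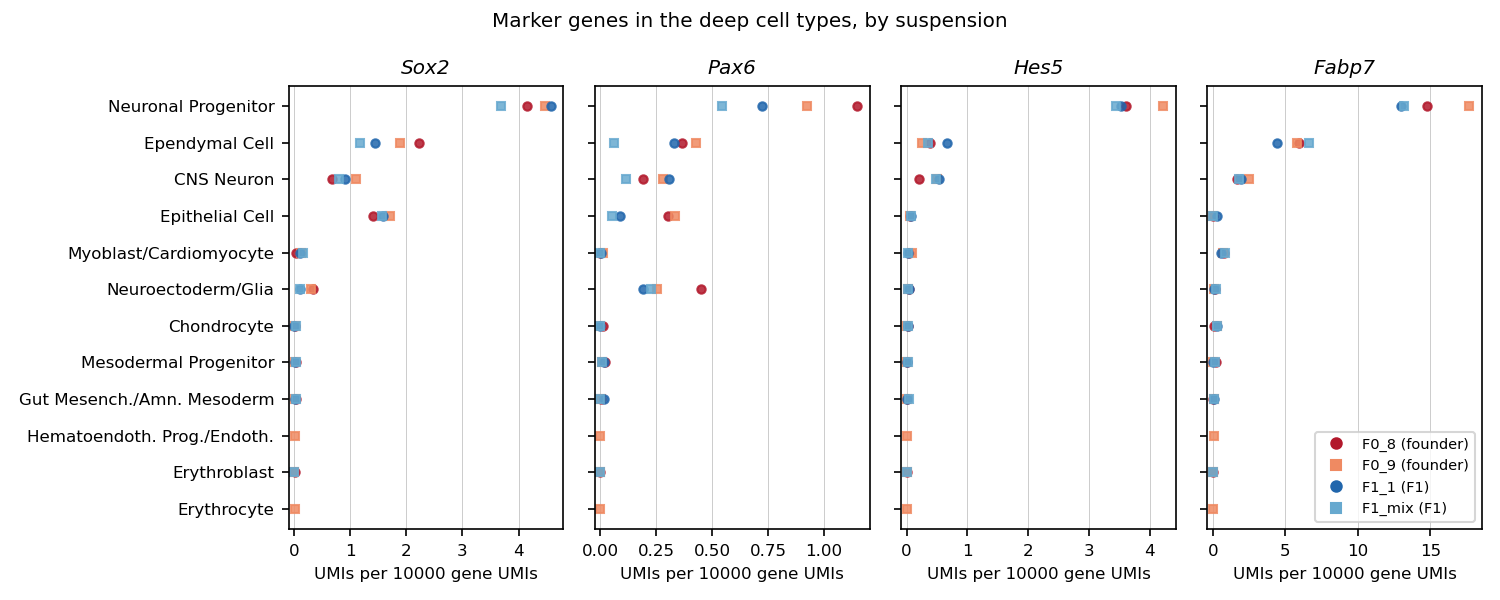
Levels of the 4 marker genes in UMIs per 10000 gene UMIs (x axes) in each deep cell type (y axis), with 1 point per suspension. The Neuronal Progenitor points lie to the right of those of every other type in all 4 panels, from 3.69 to 4.57 for Sox2 and from 13.0 to 17.7 for Fabp7.

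The markers summed to 23.1 UMIs per 10000 in Neuronal Progenitor cells, against 8.13 in Ependymal Cell and 3.51 in CNS Neuron. The markers therefore fit the label. At equal depth Sox2 had a UMI in 80.3% of Neuronal Progenitor cells (exact Clopper-Pearson 95% intervals throughout), in 0.898% of Gut Mesenchyme/Amniotic Mesoderm cells and in 0 of 142 erythroblasts. Fabp7 had a UMI in 80.1% of the progenitors and in 2.39% of the gut mesenchyme cells. Pax6 had a UMI in 25.5% and 0.299%. The unthinned shares in the progenitors were 93.8%, 87.6% and 45.4% for Sox2, Fabp7 and Pax6.

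Markers of other cell types were low. Muscle markers summed to 0.00590 UMIs per 10000 over 4 genes, with Myod1 at 0. Macrophage markers summed to 0.0153, with Tyrobp at 0, endothelial markers to 0.0354 and epithelial markers to 0.0908. Erythroid markers summed to 0.830, a level that was about the same in CNS Neuron (0.890) and Neuroectoderm/Glia (0.835). Mesenchyme markers summed to 0.490 and 0.468 in the founders and to 0.255 and 0.201 in F1_1 and F1_mix, against 25.7 in Chondrocyte, and Prrx1 was the highest of the 4 at 0.204. Neural crest markers summed to 0.355.

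Genes highest in Neuronal Progenitor cells were counted as a description, with no test, because the cells had been clustered on gene expression. Of 8448 genes with at least 20 UMIs in each suspension, 234 (2.77%) had a higher level in Neuronal Progenitor than in every other deep type in all 4 suspensions. The margin was small for most: the median ratio to the next highest type was 1.27, and 34 genes reached a ratio of at least 2. The next highest type was most often Mesodermal Progenitor, another dividing type, for 57 of the genes.

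Hes5 stood first among the 234 genes with a ratio of 8.46. Scube2, a secreted protein that helps release Hedgehog ligands, followed at 6.75, and Pdzph1 at 6.15. Nrarp, a Notch target that dampens the pathway, had a ratio of 4.92. The orphan nuclear receptor gene Nr2e1 (Tlx), needed in forebrain neural stem cells, had 4.61, and Fam181a had 4.53. Both were followed by Fgfbp3 at 4.02, the SoxB1 gene Sox3 at 4.01, the zinc finger gene Sall3 at 3.87 and the ventral forebrain homeobox gene Gsx2 at 3.70. The SoxB2 gene Sox21 (3.42), the dorsal forebrain homeobox gene Emx1 (3.33), the Wnt receptor gene Fzd9 (3.25), the SoxB1 gene Sox1 (3.16) and Mfsd2a, a transporter of lysophospholipids (3.07), closed the first 15. Fam181a and Pdzph1 are named for their rank only.

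Of 19 neuroepithelial and radial glia genes, 11 were among the 234 (2.77% of the genes compared were): Sox1, Sox2, Sox3, Sox21, Pax6, Nes, Fabp7, Prom1, Msi1, Hes5 and Ttyh1. Vim, the intermediate filament vimentin, was the most abundant member at 20.1 UMIs per 10000, close to 19.5 in Ependymal Cell. Nes, the progenitor filament nestin, had levels of 3.65, 3.70, 4.06 and 3.58 in the 4 suspensions, against 0.922 in CNS Neuron and 1.90 in Ependymal Cell. The growth factor genes Mdk and Ptn were abundant in the progenitors at 11.5 and 8.21, but had rank 7 and rank 4 among the deep types. The list summed to 81.7 in Neuronal Progenitor, 63.6 in Ependymal Cell, 29.5 in CNS Neuron and 13.1 in Neuroectoderm/Glia.

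**Figure D2:**
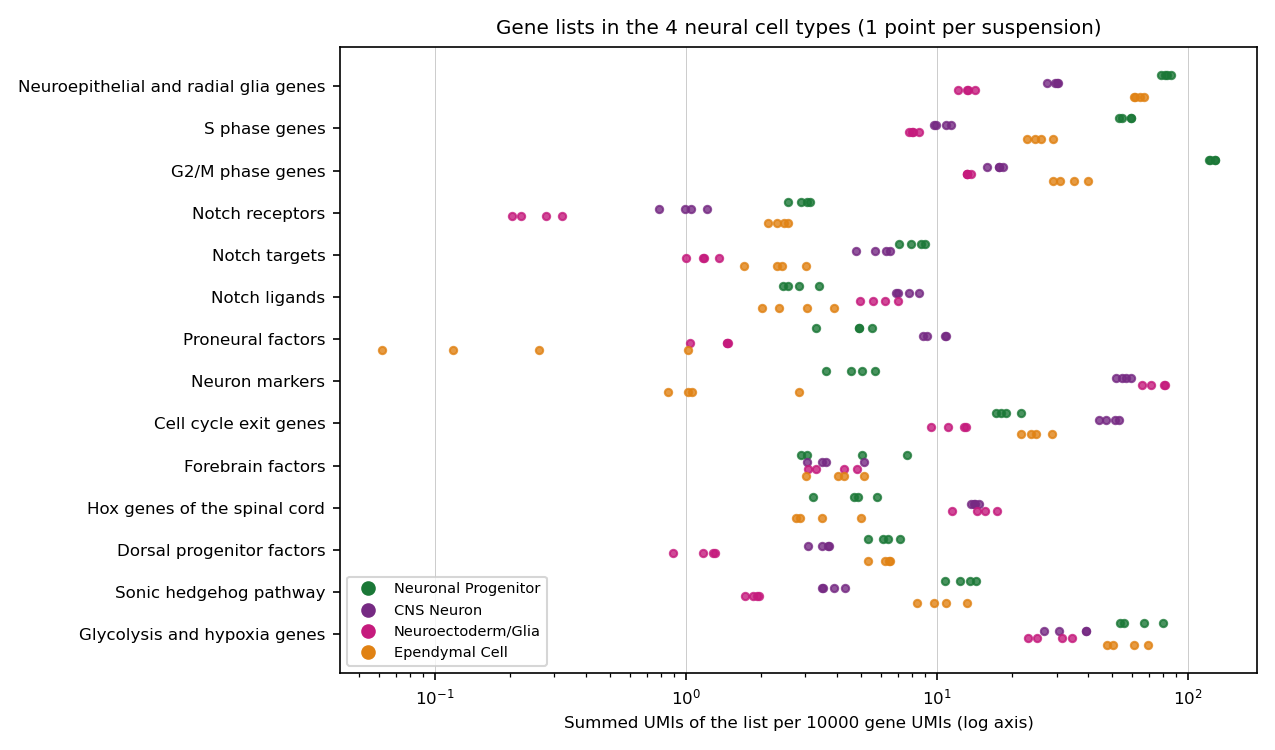
Summed UMIs of 14 gene lists per 10000 gene UMIs (x axis, log scale) in the 4 neural cell types, with 1 point per suspension and 1 colour per type. Progenitors lie far to the right for S and G2/M phase genes (57.0 and 125 pooled), and far to the left of both neuron types for neuron markers (4.74).

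Cell cycle genes were higher in Neuronal Progenitor cells than in the neuron types. The 42 S phase genes summed to 57.0 UMIs per 10000, against 10.5 in CNS Neuron and 8.08 in Neuroectoderm/Glia. The 52 G2/M genes summed to 125, against 17.4 and 13.4. These levels were second among the deep types, after Erythroblast for S phase (58.8) and after Mesodermal Progenitor for G2/M (135). Per suspension the G2/M sum was 123, 129, 121 and 128, a spread of a few percent.

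Shares of cells with a UMI of single cell cycle genes were taken at equal depth. Mki67, the proliferation marker Ki-67, had a UMI in 57.0% of Neuronal Progenitor cells (interval 52.9 to 61.1%), 4.66% of CNS Neuron and 1.43% of Neuroectoderm/Glia. Its shares in the progenitors were 61.0%, 56.7%, 54.7% and 56.0% in F0_8, F0_9, F1_1 and F1_mix. The share rests on depth: it was 35.3% at 2000 UMIs per cell and 72.9% at 10000. Top2a, which untangles DNA in mitosis, had a UMI in 59.4% of the progenitors, 4.85% of CNS Neuron and 3.27% of Neuroectoderm/Glia. Pcna, the replication clamp, had a UMI in 60.6%, 15.9% and 17.4%, and the helicase subunit gene Mcm6 in 51.6%, 8.16% and 5.73%. In gut mesenchyme cells the shares of Top2a, Pcna and Mcm6 were 11.1%, 30.5% and 45.2%. Ccnd1, the cyclin of G1 progression, had a UMI in 74.4% of the progenitors and in 2.66% of Neuroectoderm/Glia.

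Among the progenitors themselves, the S phase genes had a median of 25 UMIs of 5000 per cell, and 10% of the cells had 9.80 or fewer. The G2/M genes had a median of 52 UMIs, with 10% of the cells at 12 or fewer and 10% at 119 or more. The median of CNS Neuron cells was 5 for S phase and 7 for G2/M, and 10% of those cells reached 9 and 12. The progenitors with the fewest UMIs therefore overlapped the neurons in both lists, and no cell was called by phase.

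Against each neural type, the genes with the largest median log2 ratio over the 4 suspensions were listed. Compared with CNS Neuron the highest genes were Melk, Cep55, H2ac4, Ndc80, Kif18b, Rspo1, Sgo2a, Cdca5, Aurkb and Aunip. Of these, Cep55, Ndc80, Kif18b, Sgo2a, Cdca5 and Aurkb act in chromosome segregation or cytokinesis, and Rspo1 is a secreted enhancer of Wnt signalling made by the roof plate. Aurkb, the kinase aurora B, had 0.940 UMIs per 10000 in the progenitors and 0.0114 in CNS Neuron, the latter from 7 UMIs. Rspo1 had 0.399 and 0.00491. The lowest genes included Otp, Cntn2, Uncx, Gpr22, Slc6a5, Skor1, Cntnap5a, Lamp5 and Tlx2. Otp, Uncx, Skor1 and Tlx2 encode factors of postmitotic neurons, and Slc6a5 the glycine transporter of inhibitory neurons. Uncx had 0.0318 in the progenitors and 2.35 in CNS Neuron.

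Compared with Neuroectoderm/Glia, the highest genes were Mcm3, Hmmr, Ccnb1, Ube2c, Clspn, H1f5, Pbk, Dlgap5, Cenpf and Kif11, a set of replication and mitosis genes. Cenpf, a kinetochore protein, had 5.61 in the progenitors and 0.0403 in Neuroectoderm/Glia. The lowest were Sst, Sncg, Lamp5, Cntnap5a, Ina, Nefl, Slc6a5, Otp, Gpr22 and Resp18, most of them neuronal. The neurofilament gene Nefl had 0.0484 in the progenitors and 8.08 in Neuroectoderm/Glia, and the neuronal filament gene Ina had 0.107 and 18. The cells labelled Neuroectoderm/Glia thus carried neuronal transcripts, with Stmn2 detected in 100% of them at equal depth and in 12.9% of the progenitors.

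Ependymal Cell was the neural type nearest to the progenitors in the sum of radial glia genes and in Sox2 and Sox3. For Sox1 the nearest was CNS Neuron, at 0.123 against 0.388 in the progenitors. The progenitors were higher in genes that included Msx3, Rtkn2, Neurog1, Dbx1, Neurog2, H1f5, Depdc1a, Depdc1b and Mxd3. Msx3, a homeobox gene of the dorsal neural tube, had 0.751 in the progenitors and 0.0219 in Ependymal Cell, and the bHLH factor gene Neurog1 had 0.383 and 0. They were lower in genes that included Pmel, Cdh19, Krt18, Vtn, Dct, Colec12, Postn, Sntb1 and Egfl8. Pmel and Dct are pigment cell genes and Cdh19 marks Schwann cell precursors, so the cells labelled Ependymal Cell held transcripts of further lineages. Pmel had 0.00472 in the progenitors and 3.18 in Ependymal Cell.

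Notch receptors were highest in Neuronal Progenitor cells as a group, at 2.88 UMIs per 10000 against 2.37 in Ependymal Cell and 1.01 in CNS Neuron. Notch1, the main receptor of the ventricular zone, had levels of 1.64, 1.83, 1.74 and 1.59 in the 4 suspensions, against 0.775 in CNS Neuron. Notch3 had 0.735 and Notch2 0.377, the latter below the 1.07 of Ependymal Cell. At equal depth Notch1 had a UMI in 52.5% of progenitors, 23.5% of CNS Neuron and 9.28% of gut mesenchyme cells.

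The list of Notch targets, which counts Hes6, summed to 8.15 in Neuronal Progenitor and 5.83 in CNS Neuron, and its members went in opposite ways. Hes5 was 8.46 times its CNS Neuron level and Nrarp 6.40 times. Hes1, the other main Hes effector in progenitors, had 0.482 in the progenitors and 0.0131 in CNS Neuron, but 0.95 in Epithelial Cell. Hes6 is on the list though it is induced by proneural factors rather than repressed by them. It had 2.41 in the progenitors and 5.04 in CNS Neuron, most of the sum there. Lfng, a glycosyltransferase that modifies Notch receptors, was 5.05 times its CNS Neuron level, and its relative Mfng was 0.442 times.

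Notch ligands showed the reverse order, at 2.84 in Neuronal Progenitor, 7.58 in CNS Neuron and 6.05 in Neuroectoderm/Glia. Dll1, the ligand that signals from differentiating cells to their neighbours, had 0.709 in the progenitors and 0.713 in CNS Neuron. Dll3, a relative that acts within the expressing cell, had 0.396 and 3.52. The atypical ligand gene Dner had 0.170 and 1.95. Dlk1, a ligand-like protein, was the highest of the list in the progenitors at 1.38.

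Proneural factors summed to 4.66 in Neuronal Progenitor and 9.91 in CNS Neuron. Neurog2, which drives glutamatergic neuron production, had 0.999 and 1.69. Insm1, a zinc finger factor of cells about to become neurons, had 0.769 and 2.51, and Neurod1, which acts later, had 0.196 and 2.07. At equal depth a UMI of any proneural factor of the list was found in 55.9% of the progenitors, against 86.2% of CNS Neuron, 38.0% of Neuroectoderm/Glia and 2.10% of gut mesenchyme cells.

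The list of cell cycle exit genes summed to 19.1 UMIs per 10000 in the progenitors and 49.2 in CNS Neuron. It also holds Ccnd1, the cyclin of G1 progression and not an exit gene. Ccnd1 was highest in the progenitors, at 5.59 against 3.55 in Ependymal Cell, the next type. Cdkn1c, the cell cycle inhibitor p57, had 3.93 UMIs per 10000 in the progenitors and 32.9 in CNS Neuron. Gadd45g and Btg2, both induced at the step from progenitor to neuron, had 1.75 and 2.19 in the progenitors, against 5.81 and 3.24. Tubb3, the neuronal tubulin, had 2.69 and 31.8, and Dcx, the migration protein doublecortin, had 0.282 and 4.38. Tubb3 had a UMI in 50.8% of the progenitors at equal depth, against 7.78% of gut mesenchyme cells, and Dcx in 10.7% against 5.09%.

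Glial genes split into the early factors and the later markers. Nfia and Nfib, nuclear factor I genes that act in radial glia and in the start of gliogenesis, had a UMI in 64.0% and 72.3% of the progenitors. Both were also frequent outside the nervous system, at 87.6% and 86.5% of gut mesenchyme cells. The glial lineage markers were near 0, with Olig2 in 3.40% of the progenitors, Pdgfra in 2.04% and the astrocyte gene Aldh1l1 in 0.679%. Gfap was found in 0.170% of the cells and Aqp4 in 0 of 589.

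Progenitors that held a Dll1 UMI were compared with those that did not, as a description of how the genes vary within the type. At equal depth 128 cells held Dll1 and 461 did not, and values are again UMIs per 10000. Neurog2 was 3.58 in cells with Dll1 and 0.690 in cells without, and Neurog1 was 1.22 and 0.148. Gadd45g showed 6.03 and 0.898, Hes6 5.66 and 1.83, Btg2 5.64 and 1.66, and Cdkn1c 8.14 and 3.20. All 6 of these genes were higher in the cells with Dll1 in each of the 4 suspensions. Hes1 was lower in the cells with Dll1 in all 4 suspensions, at 0.234 against 0.525, and so was Sox2, at 3.41 against 4.44. The Hes1 values rest on few UMIs, with 0.229, 0.263, 0.316 and 0.167 in 35, 38, 19 and 36 cells with Dll1 (F0_8, F0_9, F1_1 and F1_mix). Hes5 was higher in 3 of 4, at 4.53 against 3.70, and Fabp7 was 15.3 against 15.2. Mki67 was 2.22 against 2.79 and was higher in the cells with Dll1 in 1 suspension. The cells with Dll1 thus differed in proneural and exit genes, and Hes1 and Hes5 went in opposite ways in the pooled values. Cells of 1 suspension are not replicates and no test was made.

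Regional identity divided the type. Forebrain factors summed to 4.46 UMIs per 10000, with Lhx2 at 1.71, Emx2 at 0.375 and Emx1 at 0.324. Hindbrain Hox genes summed to 3.28, led by Hoxb3 (0.705) and Hoxb2 (0.596), and Hox genes of the spinal cord to 4.64, led by Hoxb9 (0.629) and Hoxb8 (0.524). Hox sums were higher in CNS Neuron, at 8.72 and 14.2, than in the progenitors. At equal depth 33.3% of the progenitors held a forebrain factor UMI and no Hox UMI, 32.1% a Hox UMI only, 8.15% both and 26.5% neither. The product of the shares of the 2 kinds of cell was 16.7%, so cells with both were rarer than that. A UMI of any Hox gene of both lists was also found in 9.15% of erythroblasts, so a UMI alone does not assign a cell to a region.

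**Figure D3:**
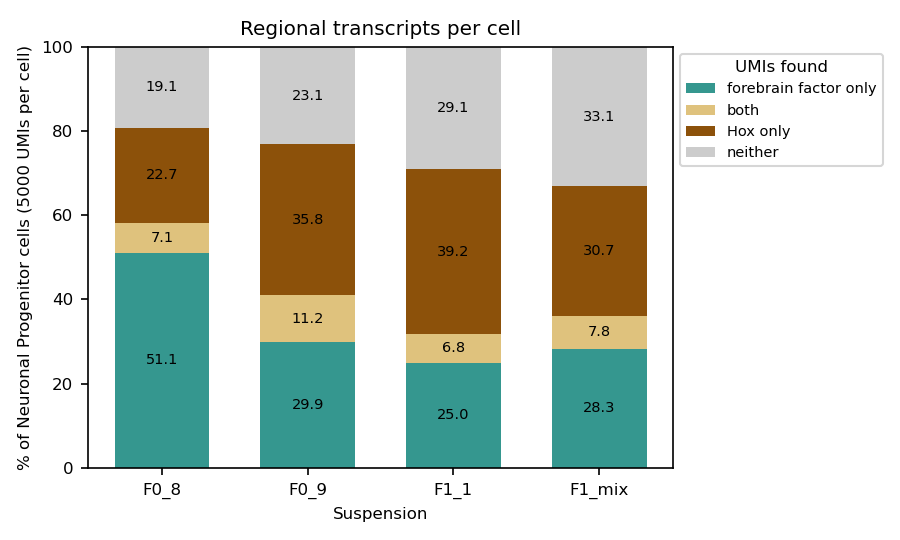
Percent of Neuronal Progenitor cells (y axis, thinned to 5000 UMIs) with a UMI of a forebrain factor only, of a Hox gene only, of both or of neither, by suspension (x axis). F0_8 had the most forebrain cells (51.1%) and the fewest Hox cells (22.7%), and the other 3 suspensions lay between 25% and 29.9% for forebrain cells.

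The forebrain share differed between suspensions. F0_8 had 51.1% (interval 42.5 to 59.6%), F0_9 29.9%, F1_1 25% and F1_mix 28.3%, while the Hox share was 22.7%, 35.8%, 39.2% and 30.7%. F0_8 stood apart from the other 3, and F0_9 lay within the range of counting error of the F1 suspensions. Whether this came from the embryos or from the part of each suspension that was captured was not tested.

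Forebrain and Hox progenitors were set side by side, with no test, as cells grouped at equal depth and levels from all their UMIs. Sox2 was 4.11 in forebrain cells and 4.85 in Hox cells, and Mki67 was 3.31 and 2.54. Fabp7 was 7.74 in forebrain cells and 21.3 in Hox cells, and Hes5 was 2.79 and 4.33. Pax3, a dorsal factor of the hindbrain and cord, was 0.395 and 4.65, and Neurog2 was 1.89 and 0.362. Cells with neither had 1.91 of Otx2, a factor of forebrain and midbrain, against 0.174 in Hox cells.

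Dorsal and ventral factors were unequal. Dorsal progenitor factors summed to 6.23, led by Pax3 at 2.82 and Zic1 at 1.51, and ventral factors to 1.73, led by Irx3 at 0.597 and Dbx1 at 0.406. Sonic hedgehog pathway genes summed to 12.6, rank 3 among the deep types. Gli3, the factor that acts mainly as a repressor when the signal is absent, had 4.19, 3.48, 3.20 and 3.07 in the 4 suspensions and was highest in the progenitors. The co-receptor gene Boc had 1.68 and was also highest there. Shh itself had 0.270 in the progenitors and 1.97 in Ependymal Cell, and Gli1, a direct readout of the signal, had 0.0236.

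EGFP was removed by the authors before clustering and did not choose the cells. Its level in Neuronal Progenitor was 11.1 UMIs per 10000 for F0_8 (exact Poisson 95% interval 10.6 to 11.5), 10.8 for F0_9 (10.3 to 11.3), 21.8 for F1_1 (21.2 to 22.4) and 11.8 for F1_mix (11.3 to 12.2). F1_1 stood far above the other 3, and both founders lay just below F1_mix. The founder difference of EGFP in the progenitors was -0.66 on the log2 scale, with an adjusted p of 0.246 in the edgeR fit described below. The type ranked 7 of 10, 7 of 12, 8 of 9 and 4 of 10 among the deep types with at least 20 cells. Against the median of the other types in the same suspension, 12.1, 11.2, 24.5 and 9.85, the log2 ratios were -0.13, -0.06, -0.17 and 0.25. Their mean was -0.02 ± 0.19 (SD, n = 4), with p = 0.875 in a two-sided exact permutation test by sign flips, for which 0.125 is the smallest p. The other types included red blood cell types, which held little EGFP. Against pooled cells of the other deep types, with red blood cell types left out, the log2 ratios were -0.26, -0.13, -0.29 and 0.04, with a mean of -0.16 ± 0.15 (SD, n = 4) and p = 0.25 in the same exact permutation test.

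**Figure D4:**
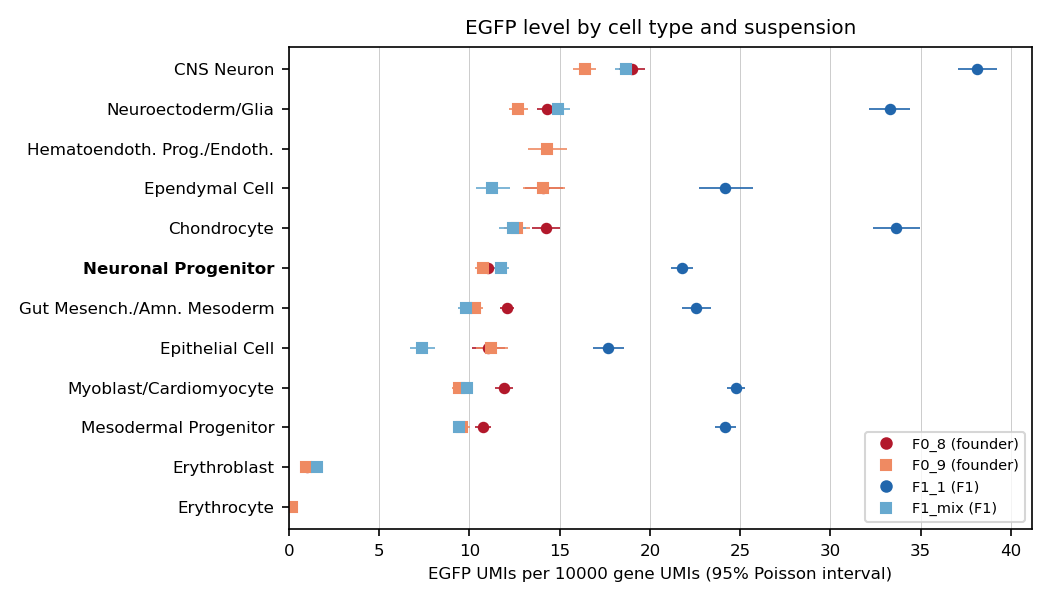
EGFP UMIs per 10000 gene UMIs (x axis) by deep cell type (y axis), with 1 point per suspension and exact Poisson 95% intervals. Neuronal Progenitor lies at 10.8 to 11.8 in 3 suspensions and at 21.8 in F1_1, below CNS Neuron in each of them.

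At least 1 EGFP UMI was found in 596 of 597 progenitors before thinning. Erythroblasts, with EGFP levels of 0.994, 0.95 and 1.58 in F0_8, F0_9 and F1_mix, also had a UMI in 54.7%, 71.2% and 76.2% of cells, so a UMI alone does not show that a cell expressed EGFP. In single cells the ratio of the 90th to the 10th percentile was 3.66, 7.32, 3.13 and 4.57 for F0_8, F0_9, F1_1 and F1_mix. F0_9 was the most uneven of the 4. CNS Neuron cells held more EGFP than the progenitors in all 4 suspensions, at 19.0, 16.4, 38.1 and 18.7. That comparison was chosen after the values were seen and has no test.

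Neuronal Progenitor cells made up 9.19%, 10.2%, 11.5% and 11.4% of all annotated cells of F0_8, F0_9, F1_1 and F1_mix. Both founders lay below both F1 suspensions, with a difference in the means of -1.77 percentage points. The two-sided exact permutation test gave p = 0.333, the smallest p that 2 against 2 suspensions allow. Among the 4 neural types alone the progenitors made up 30.8%, 28.6%, 40.4% and 36.7%.

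Founder and F1 progenitors were then compared gene by gene. Of 10668 genes tested on UMIs summed per suspension, 70 (0.656%) passed an adjusted p of 0.05, of which 48 (0.450%) were higher in founders and 22 (0.206%) were lower (edgeR quasi-likelihood test, Benjamini-Hochberg). A further measure was weaker: in 4800 genes (45.0%) both founders lay on one side of both F1 suspensions. The founders had lower depth per cell, F0_8 had more forebrain cells, mesenchyme markers were higher in both founders, and the Y-linked genes summed to 2.42, 0.0111, 0.0132 and 0.963, so that sex did not follow generation. The part of these in the genes below was not tested except where a value is given. The count rested on single suspensions: it was 14 without F0_8, 136 without F0_9, 89 without F1_1 and 131 without F1_mix, and 53 with DESeq2.

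Nfib, a nuclear factor I gene, had the smallest adjusted p of all genes and was named for that after the values were seen. Its levels were 6.99 and 6.79 in F0_8 and F0_9 and 3.13 and 3.06 in F1_1 and F1_mix, a log2 difference of 1.12 ± 0.06 (SE) with an adjusted p of 0.000285 in the edgeR fit. The founders agreed closely, the F1 suspensions agreed closely, and they did not overlap. Nfib was called under each alternative that was run. Nfia, named likewise, had levels of 7.92, 6.64, 4.0 and 3.12 and a log2 difference of 1.0, and it was not called without F0_8 (0.86, adjusted p = 0.0664, edgeR). Nfix, of the same family and one of the 10 largest rises, had levels of 0.678, 0.501, 0.136 and 0.120 and a log2 difference of 2.16. Nfic, the other family member tested, had 0.0886, 0.0947, 0.0923 and 0.0963 (log2 difference -0.08, adjusted p = 0.947).

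Further large rises were in genes of different functions. Ppp2r2b, a regulatory subunit of protein phosphatase 2A, had levels of 1.34, 0.524, 0.154 and 0.124 and a log2 difference of 2.72. Hopx, a homeodomain-only protein known in quiescent and outer radial glia, had 0.355, 0.256, 0.0220 and 0.0843 (2.45). Kcnd2, a potassium channel, had 2.98, 1.86, 0.356 and 0.546 (2.38). F0_8 was the higher founder in each, and for Ppp2r2b by more than 2-fold. Csmd1 had 1.29, 1.18, 0.220 and 0.269 (2.29), and the neuregulin gene Nrg1 had 3.5, 1.47, 0.492 and 0.526 (2.25). Robo2, a receptor for the guidance cue Slit, had 1.69, 1.54, 0.396 and 0.546 (1.74), and Creb5 and the channel-interacting protein gene Kcnip4 rose by 1.73 and 1.72. Without F0_8, Hopx (2.19, edgeR adjusted p = 0.261), Creb5 (1.19, 0.0664) and Kcnip4 (1.47, 0.135) were no longer called, while Ppp2r2b, Kcnd2, Csmd1, Nrg1, Robo2 and Nfix were. Without F1_mix, Ppp2r2b (2.56, 0.0528) and Creb5 (1.51, 0.0579) missed the threshold.

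Of 12 forebrain factors on the list, 11 were tested, 3 rose (0.450% of all genes tested rose) and none fell, and the median log2 difference was 0.32, against -0.01 for all genes tested. Emx1, Lhx2 and Emx2, homeobox genes of the dorsal forebrain, rose by 2.25, 1.67 and 1.66, and Emx1 and Lhx2 were also called without F0_8. Lhx2 had 3.56 in F0_8 and 1.99 in F0_9, against 0.813 and 0.895 in the F1 suspensions. Eomes, which marks intermediate progenitors of the cortex, rose by 1.61, and Neurog2 rose by 1.16, with levels of 1.62, 1.30, 0.589 and 0.682. Neurog2 was the 1 called gene of 10 proneural factors tested, of which 8 were below 0, with a median of -0.86. Ttyh1, of the radial glia list, rose by 0.74 and was the only 1 of 19 of its list to be called. Without F0_8 the edgeR adjusted p-values were 0.0664 for Emx2, 0.201 for Eomes, 0.0664 for Neurog2 and 0.113 for Ttyh1, so none of these was called, and Eomes was not called without F1_1 either (0.0633).

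Of 20 genes of glycolysis and hypoxia, 18 were tested, 4 fell (0.206% of all genes tested fell), none rose, and the median log2 difference was -0.44. Ldha, lactate dehydrogenase A, had 5.73 and 5.39 in founders and 10.0 and 7.54 in F1 suspensions, a log2 difference of -0.70. Aldoa, Pkm and Gapdh fell by 0.67, 0.56 and 0.38 on the log2 scale. Founders and F1 suspensions did not overlap for 11 of the 18, against 45.0% of all genes tested. Without F0_8 none of the 4 was called, with edgeR adjusted p-values of 0.156, 0.206, 0.0803 and 0.187 for Ldha, Aldoa, Pkm and Gapdh at log2 differences of -0.74, -0.64, -0.57 and -0.37. Without F0_9 Pkm alone of the 4 was called. Fgf8, the signal of the isthmus and of the rostral forebrain, had 0.0730, 0.128, 0.396 and 0.365 and the largest fall, by 1.96, followed by Greb1 by 1.63. Crabp2, a binding protein for retinoic acid, fell by 0.91, Igdcc3 by 0.82, the imprinted gene Mest by 0.72 and Ptprn2 by 0.61. Hspa8, a constitutive chaperone on the stress list, fell by 0.34. No fall of any gene was called without F0_8, where Fgf8 was at -1.60 (adjusted p = 0.0788, edgeR), Greb1 at -1.24 (0.220) and Crabp2 at -0.64 (0.0664). Greb1, Igdcc3 and Ptprn2 also lost the call without F1_1 (0.0924, 0.104 and 0.0548), and Ptprn2 without F0_9 (0.0621).

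**Figure D5:**
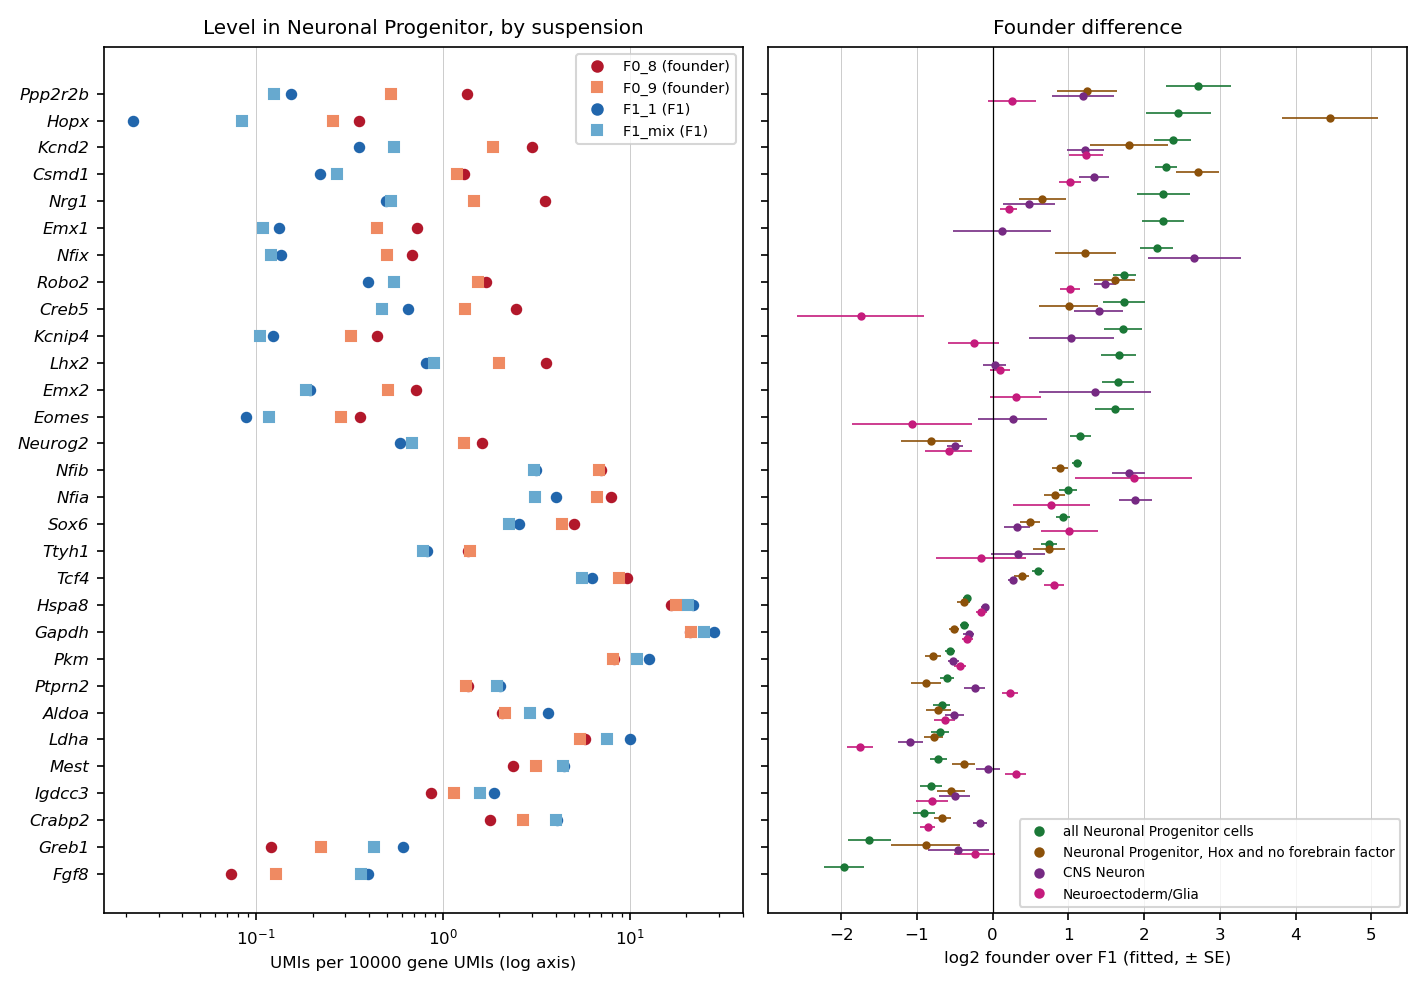
Left, levels of the named genes in Neuronal Progenitor cells (x axis, UMIs per 10000, log scale), with 1 point per suspension. Right, fitted log2 difference of founders over F1 (x axis, ± SE) in all Neuronal Progenitor cells, in those with a Hox UMI and no forebrain factor UMI, and in both neuron types, where Nfib is above 0 in each and Neurog2 is above 0 only in the fit to all progenitors.

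Most lists held no called gene. Of 42 S phase genes all were tested and none was called, with a median of -0.16 and 35 below 0, as were 5434 of the 10668 genes tested. Of 52 G2/M genes none was called, with a median of -0.01. None of 4 Notch receptors, 5 ligands, 7 targets and 8 modulators tested was called, and none of 26 Hox genes tested was called. The medians of hindbrain and spinal cord Hox genes were -0.36 and -0.11. None of 7 ventral progenitor factors tested was called, with a median of -0.87 and all 7 below 0. Of 6 midbrain and isthmus factors tested Fgf8 alone was called, with a median of -0.72 and all 6 below 0. Of 76 genes of cytosolic ribosomal proteins, a group looked at after the calls were seen, 5 fell (Rps3, Rps2, Rpl6, Rpl4 and Rps6), against 0.206% of all genes tested, and none of the 5 was called without F0_8. All 76 were below 0, against 5434 of the 10668 genes, with a median of -0.15. None of 3 mesenchyme markers tested was called, with a median of 0.95.

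The comparison was repeated on 192 progenitors with a Hox UMI and no forebrain factor UMI, since the forebrain share differed between suspensions. They were chosen on all UMIs of a cell, so they are not the same set as the Hox cells grouped at equal depth. The 192 were 27, 47, 64 and 54 cells of F0_8, F0_9, F1_1 and F1_mix. In them 37 of 8335 genes (0.444%) were called, 20 higher in founders (0.240%) and 17 lower (0.204%), and 15 of the 37 were among the 70. Nfib remained called, with levels of 6.28, 6.01, 3.21 and 3.20 and a log2 difference of 0.89 (adjusted p = 0.0015 in the edgeR fit). Nfia remained called at 0.82, Robo2 at 1.61, Csmd1 at 2.71, and the enzymes Ldha at -0.78, Pkm at -0.79 and Gapdh at -0.51. Hopx was also called, with levels of 0.713, 0.449, 0 and 0.0508.

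Other genes were not called in these Hox cells. Neurog2 turned to -0.81 (adjusted p = 0.551), with levels of 0.274, 0.299, 0.312 and 0.698. In all progenitors without a forebrain factor UMI Neurog2 was at 0.26 (adjusted p = 0.889, edgeR), and in those with forebrain factor UMIs alone (grouped at equal depth) its levels were 2.34, 2.65, 1.09 and 1.26. In the Hox cells Nrg1 and Ppp2r2b were at 0.66 and 1.24. Nfix was at 1.22, Kcnd2 at 1.80 and Aldoa at -0.72. Emx1 and Lhx2 were absent from these cells by the way they were chosen. Fabp7, in contrast, was called in these cells, with levels of 28.7, 27.1, 16.2 and 16.9 and a log2 difference of 0.71 (adjusted p = 0.000327).

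Whether a founder difference was particular to Neuronal Progenitor was tested as an interaction with the suspension as a block. Against CNS Neuron, 12 of 11076 genes (0.108%) differed, 8 with a more positive founder difference in the progenitors (0.0722%) and 4 with a more negative one (0.0361%). Lhx2 differed by 1.59 (adjusted p = 0.0013, edgeR), with CNS Neuron levels of 2.52, 1.74, 2.12 and 2.0. Neurog2 differed by 1.64, with CNS Neuron levels of 1.37, 1.45, 1.92 and 2.02. Lhx2 and Neurog2 were thus higher in founders in the progenitors and not in the neurons. Nfib and Nfia were not among the 12 (3 with DESeq2), and their own founder differences in CNS Neuron were 1.79 and 1.89, both called (there 77 of 9916 genes were called, 0.777%, of which 0.474% were higher and 0.303% lower). Of the other named rises and falls, Kcnd2, Robo2 and Csmd1 were also called in CNS Neuron, at 1.22, 1.49 and 1.34. Ldha and Pkm were called there at -1.08 and -0.52, and the remaining ones were not.

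Against Neuroectoderm/Glia, 34 of 11323 genes (0.300%) differed, 23 of them with a more positive founder difference in the progenitors (0.203%) and 11 with a more negative one (0.0971%). Ppp2r2b differed by 2.40, and Nrg1, Kcnip4 and Lhx2 by 1.94, 1.96 and 1.52. Sox2 differed by -1.65, from levels of 0.339, 0.289, 0.101 and 0.0948 in Neuroectoderm/Glia, and it was nearly level in the progenitors, at 0.02. Ldha, Pkm and Crabp2 fell and Kcnd2, Robo2 and Csmd1 rose with a call in both types. The other named rises and falls were not called in Neuroectoderm/Glia. Ldha fell by 0.70 in the progenitors and by 1.76 in Neuroectoderm/Glia, where 114 of 9901 genes were called (1.15%, of which 0.656% were higher and 0.495% lower). None of the 11613 genes tested was called in this comparison without F1_1 (701 had an unadjusted p under 0.05), and DESeq2 called 2.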

How the data were processed

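Gene expression was measured in 1 pooled capture of 4 oligo-tagged suspensions from E11.5 mouse embryos with the Chromium 3′ v3.1 chemistry. UMI counts per gene and cell were deposited by the authors, who used Cell Ranger (7.2.0 per the file headers) against GRCm38 (mm10) with EGFP added. The authors clustered cells with Seurat on 2000 variable genes after removal of EGFP, and kept single cells called by DoubletFinder. No further doublet caller was run, and counts were used without SoupX or RECODE correction. Of the authors' table of cells, 17 columns were not used, among them EGFP values on a log scale.

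UMI counts were summed over the Neuronal Progenitor cells of each suspension and tested with edgeR 4.0.16 (TMM, filterByExpr, glmQLFTest, Benjamini-Hochberg) in R 4.3.3, founders against F1. The SE of a log2 difference was derived from the test, as its absolute value over the square root of the F statistic. Both types of a suspension entered the interaction fits, with the suspension as a block. DESeq2 1.42.0 was an alternative. Python 3.11.15 with scipy 1.17.1, pandas 2.3.3 and numpy 2.4.6 gave the levels and shares, and matplotlib 3.10.9 the plots. The scripts were tested on simulated data.

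Named were the 4 markers, the 10 largest rises and falls that were called, called members of the 34 lists, the 15 genes of highest ratio to the next type, the 10 highest and lowest against each neural type, and up to 6 list members by level. Some genes that the rule names are not reported here. Names outside this rule are marked as chosen after their values were seen, or describe contrasts within a paragraph. The cells and lists were chosen with earlier results of these data known. Deep types with at least 20 cells in a suspension were compared, and a gene needed at least 20 UMIs. Positions and promoters came from RefSeq tables of GRCm38.p6, and the genome sequence of another build was not used.

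The alternatives covered normalization, filters, depth, mitochondrial share, a Y-linked covariate, leaving out each suspension, and 2 subsets of cells added after the data were seen.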

Additional observations from a re-analysis of the deposited data

Results flagged for a closer look

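EGFP in Neuronal Progenitor cells was 21.8 UMIs per 10000 in F1_1, and the gap to the nearest of the other 3 suspensions was larger than Dixon's 95% critical value allows. Of 44 values over the 4 suspensions that were examined this way, 1 stood out, and chance gives about 1 in 20.

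Some founder differences of the named genes differed between Neuronal Progenitor and CNS Neuron in the interaction test (edgeR, adjusted p under 0.05). The progenitor difference was more positive by 1.51 for Ppp2r2b, 1.59 for Lhx2, 1.64 for Neurog2 and 1.70 for Nrg1 on the log2 scale. In CNS Neuron alone the founder differences were 1.19, 0.03, -0.50 and 0.47 for Ppp2r2b, Lhx2, Neurog2 and Nrg1, and none of these 4 was called there.

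Against Neuroectoderm/Glia the progenitor difference was more negative by -1.65 for Sox2, -1.05 for Mest, -1.01 for Ptn and -0.86 for Ptprn2. It was more positive by 0.91 for Vim, 0.92 for Tpi1, 1.06 for Ldha, 1.26 for Csmd1, 1.52 for Lhx2, 1.94 for Nrg1, 1.96 for Kcnip4 and 2.40 for Ppp2r2b. For Vim, Tpi1 and Ldha the founder difference was negative in both types and larger in Neuroectoderm/Glia, at -1.18, -1.20 and -1.76. Csmd1 rose in both types, by 2.29 in the progenitors and by 1.02 in Neuroectoderm/Glia. Without F1_1 no gene was called in this comparison. The level of Lhx2 in Neuroectoderm/Glia was 1.77, 2.23, 1.92 and 1.82 in F0_8, F0_9, F1_1 and F1_mix.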

How the results depend on the processing

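The count of 70 genes between founder and F1 progenitors became 346 with no filter on low counts (185 higher, 161 lower), 7 with sums thinned to the smallest total and 37 in the Hox cells without forebrain UMIs, a subset added after the data were seen. It ranged from 14 without F0_8 to 136 without F0_9, with F1_mix left out at 131. When F1_mix was left out the split was 61 higher and 70 lower, and it was 14 and 0 without F0_8. The 12 genes against CNS Neuron became 153 with no filter and 3 with DESeq2, and 39 to 145 when 1 suspension was left out, with all 12 kept each time. The 34 genes against Neuroectoderm/Glia became 170 and 2, and 0 (without F1_1) to 100. A group left with 1 suspension was assumed to vary like the other.

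Of 352 values of the 26 called genes that are named, over the alternatives, 265 kept their direction and call, 86 kept the direction and lost the call, and 1 reversed, Neurog2 at -0.81 in the Hox cells. With sums thinned to the smallest total, 21 of the 26 lost the call, and Kcnd2, Csmd1, Nfix, Robo2 and Neurog2 kept it. Hopx, Eomes, Ldha, Aldoa, Gapdh, Ptprn2 and Hspa8 lost it with the Y-linked covariate, and Creb5, Eomes, Ttyh1, Ptprn2 and Hspa8 with DESeq2. Sox2, which was not called, turned to -0.03 without F0_9 and to -0.13 without F1_mix, in a range up to 0.19 without F1_1. The EGFP ratio was -0.16 against pooled types outside the red blood cells, and between -0.12 and 0.02 when 1 suspension was left out, with the sign reversed without F0_8 (0.0097) and without F1_1 (0.023).

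The 234 genes highest in the progenitors became 115 after thinning, where fewer genes reached the minimum. They became 26 when a margin of 1.5-fold was required in each suspension, while 67 reached that ratio in the pooled values. The share of cells with Mki67 was 35.3% at 2000 UMIs, 72.9% at 10000 and 72.9% without thinning. No paired analysis was made, because the labels give no link between founder and F1 suspensions.

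With 2 suspensions per generation, generation, embryo, the handling of the founder zygotes, transgene copies and part of the regional makeup cannot be told apart. F1_mix also holds cells of 2 embryos. Depth limits rare transcripts, and a gene with 0 UMIs in a suspension was not detectable at its depth.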

Other observations

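Some genes that were no member of a list were called between founder and F1 progenitors, and are given as values chosen after the calls were seen. Sox6, a factor of progenitor timing, had levels of 4.99, 4.34, 2.54 and 2.24 in F0_8, F0_9, F1_1 and F1_mix, and Tcf4, an E protein partner of proneural factors, had 9.60, 8.73, 6.24 and 5.56. Maml2, a coactivator of the Notch complex, had 2.53, 2.52, 1.75 and 1.81. Dach1 had 6.92, 7.09, 5.48 and 5.26, but in the cells with a Hox UMI and no forebrain factor UMI it had 4.72, 4.94, 4.95 and 5.19, with a log2 difference that turned to -0.11 (edgeR adjusted p = 0.838), and in all cells without a forebrain factor UMI the difference was -0.08. Fezf2, a factor of deep layer cortical neurons and their progenitors, had 0.553, 0.396, 0.149 and 0.169. Npm1, a nucleolar protein, was lower in founders, at 20.8, 19.9, 24.4 and 24.0, as was the tubulin gene Tubb5, at 20.3, 21.9, 26.9 and 24.8. In the cells with a Hox UMI and no forebrain factor UMI, Tubb5 was called, Sox6, Tcf4, Maml2 and Npm1 kept their direction without a call, and Fezf2 had 0 UMIs.

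Cholesterol synthesis genes were abundant in the progenitors at 14.8 UMIs per 10000, second to Neuroectoderm/Glia at 20.3, with Hmgcs1 at 3.09 and Idi1 at 1.67. Mitochondrially encoded genes summed to 205, 201, 178 and 183 in the 4 suspensions, below the 221 of CNS Neuron and the 274 of Ependymal Cell in the pooled values.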
